A study of Mus musculus with 6 samples.

Results

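The genes examined here encode the proteins that hold neighbouring cells together: claudins and other tight junction proteins, cadherins and the catenins that bind them, desmosome proteins, and connexins. They were taken by symbol from array probe sets annotated to exactly 1 gene, which gave 102 probe sets for 65 of the 12393 genes measured. These 65 genes comprised 19 claudins, 4 other tight junction genes, 16 cadherins, 3 catenins, 10 desmosome genes and 13 connexins. Of 8 genes that the choice listed by full symbol, 7 were measured and Cgn was not analysed here. The endothelial cadherin gene Cdh5 was left out of the members and was kept as a cell type marker.

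The samples were 3 transgenic and 3 wild-type mouse livers, all taken at postnatal day 9, with 1 array per animal. Transgenic mice came from a cross of a conditional Tcfeb (now Tfeb) overexpressing line with an Alb-Cre line, in which the albumin promoter drives Cre recombinase and so directs overexpression of the lysosomal transcription factor TFEB to liver. The albumin promoter is active in hepatocytes and in the embryonic liver cells from which hepatocytes and bile duct cells arise. The labels call the controls wild type and do not say whether they carried either allele alone, and they give neither strain nor sex. Values are log2 expression as deposited. Each difference is the transgenic mean less the wild-type mean, and SE stands for its standard error in the limma fit. A gene was called higher or lower at a Benjamini-Hochberg adjusted p under 0.05 over all genes.

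Tight junctions seal the space between epithelial cells, and claudins set which ions and molecules pass through that seal. In liver, hepatocyte tight junctions border the bile canaliculus and keep bile from blood. Adherens junctions join cells through cadherins, whose inner ends bind catenins and through them actin, while desmosomes join cells through desmogleins and desmocollins tied to keratin filaments. Connexins form channels between the cytoplasm of neighbouring cells, and in mouse hepatocytes Gjb1 and Gjb2 are the main ones.

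Several features of the arrays bear on what follows. Tfeb, with 1 probe set, read 6.52, 6.61 and 6.36 in the transgenic arrays, against 6.91, 6.63 and 6.58 in the wild-type arrays. The difference was -0.21 (SE 0.11, adjusted p = 0.168 by limma), and because the labels do not describe the construct this value does not check them. Transgenic replicate 1 read 5.58 for Xist, against 13.03 to 13.19 in the other arrays, and 9.32 for the Y-linked Eif2s3y, against 3.06 to 3.43. Bacterial RNAs added at hybridisation (14 probe sets) all read lower in the transgenic group, by a median of -0.37. Scaling the arrays to those controls moved the median difference of all genes to 0.33, against -0.04 as deposited, so directions here are relative to the deposited scale.

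Wild-type replicate 1 stood apart from the other wild-type arrays. In it 52 genes read at least 1 log2 unit above both other wild-type arrays, and these included the junction genes Cdh17 and Cldn7. Of 16 measured markers of intestinal epithelium, a list written after some of these values were seen, 8 were at least 1 log2 unit higher in wild-type replicate 1 than in either other wild-type array. Their mean log2 value was 6.11, 6.08 and 5.99 in the transgenic arrays, against 7.47, 5.81 and 5.69 in the wild-type arrays. The part of these transcripts in the junction results was not tested, and for junction genes whose call changes without wild-type replicate 1 the adjusted p without it, or a range that holds it, is given.

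**Figure D1:**
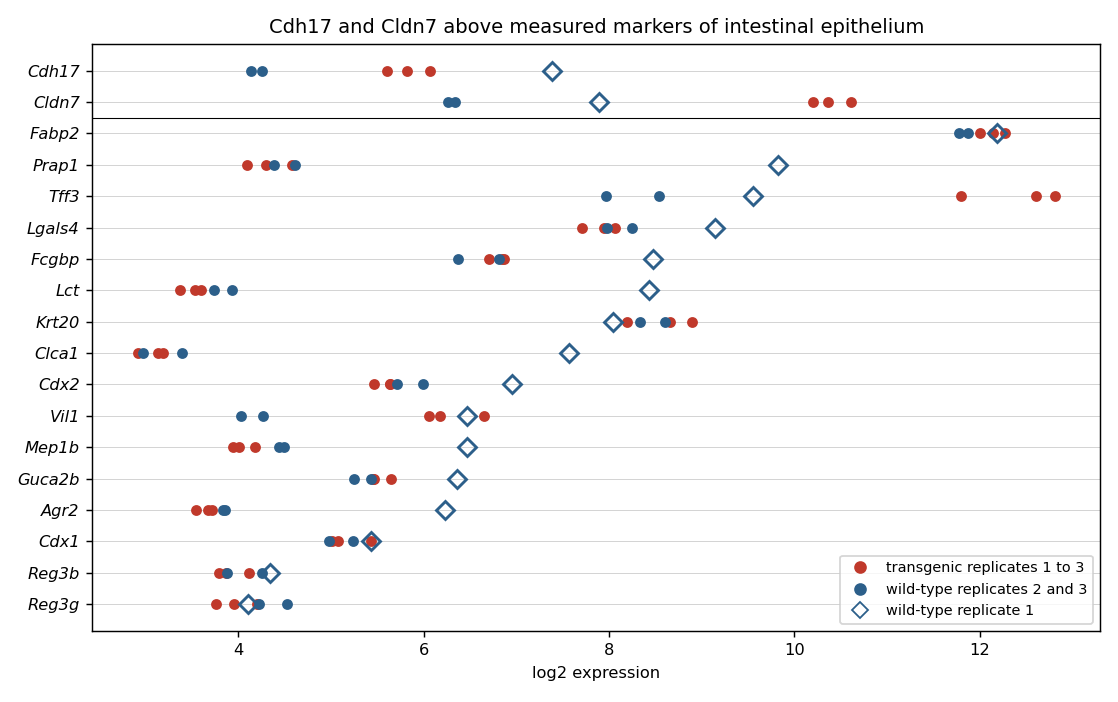
Log2 expression (horizontal axis) of Cdh17 and Cldn7, above the line, and of 16 markers of intestinal epithelium, below it. Red circles are the transgenic replicates, filled blue circles wild-type replicates 2 and 3, and open diamonds wild-type replicate 1, which lies apart from the other wild-type points for Cdh17, Cldn7, Prap1, Lct and Clca1.

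Among the 65 junction genes, 16 were higher and 12 lower in transgenic liver, and 37 did not pass the test. The called share was 43.1%, with 24.6% higher and 18.5% lower, against 40.3% of all 12393 genes called, 19.9% higher and 20.4% lower. The values of the groups did not overlap for 37 of the 65 genes, against 53.7% of all genes. Over all 65 genes these shares were thus close to those of the whole array. By junction type the called share ran from 15.4% of connexins to 75.0% of the other tight junction genes. Shares by brightness also differed from those of the array and are given below. Counts by type or list are to be read beside the shares over all genes. The junction genes had a median difference of -0.03, against -0.04 over all genes, and their range was -0.95 to 4.61. Of the 28 calls, 16 were made in every alternative processing that could give a value: 13 higher (Cldn4, Cldn7, Cldn23, Cldn6, Cldn13, Cldn2, Ocln, Cdh1, Ctnna1, Ctnnb1, Dsg2, Dsp and Pkp4) and 3 lower (Cdh2, Cldn1 and Gjb1). With the arrays scaled to the bacterial controls 31 genes were higher and 3 lower, when 91.5% of all calls were higher against 49.4% as deposited. The number lower was 7 without transgenic replicate 1, transgenic replicate 2 or wild-type replicate 2, and the number higher was then 14, 15 and 15 in that order.

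**Figure D2:**
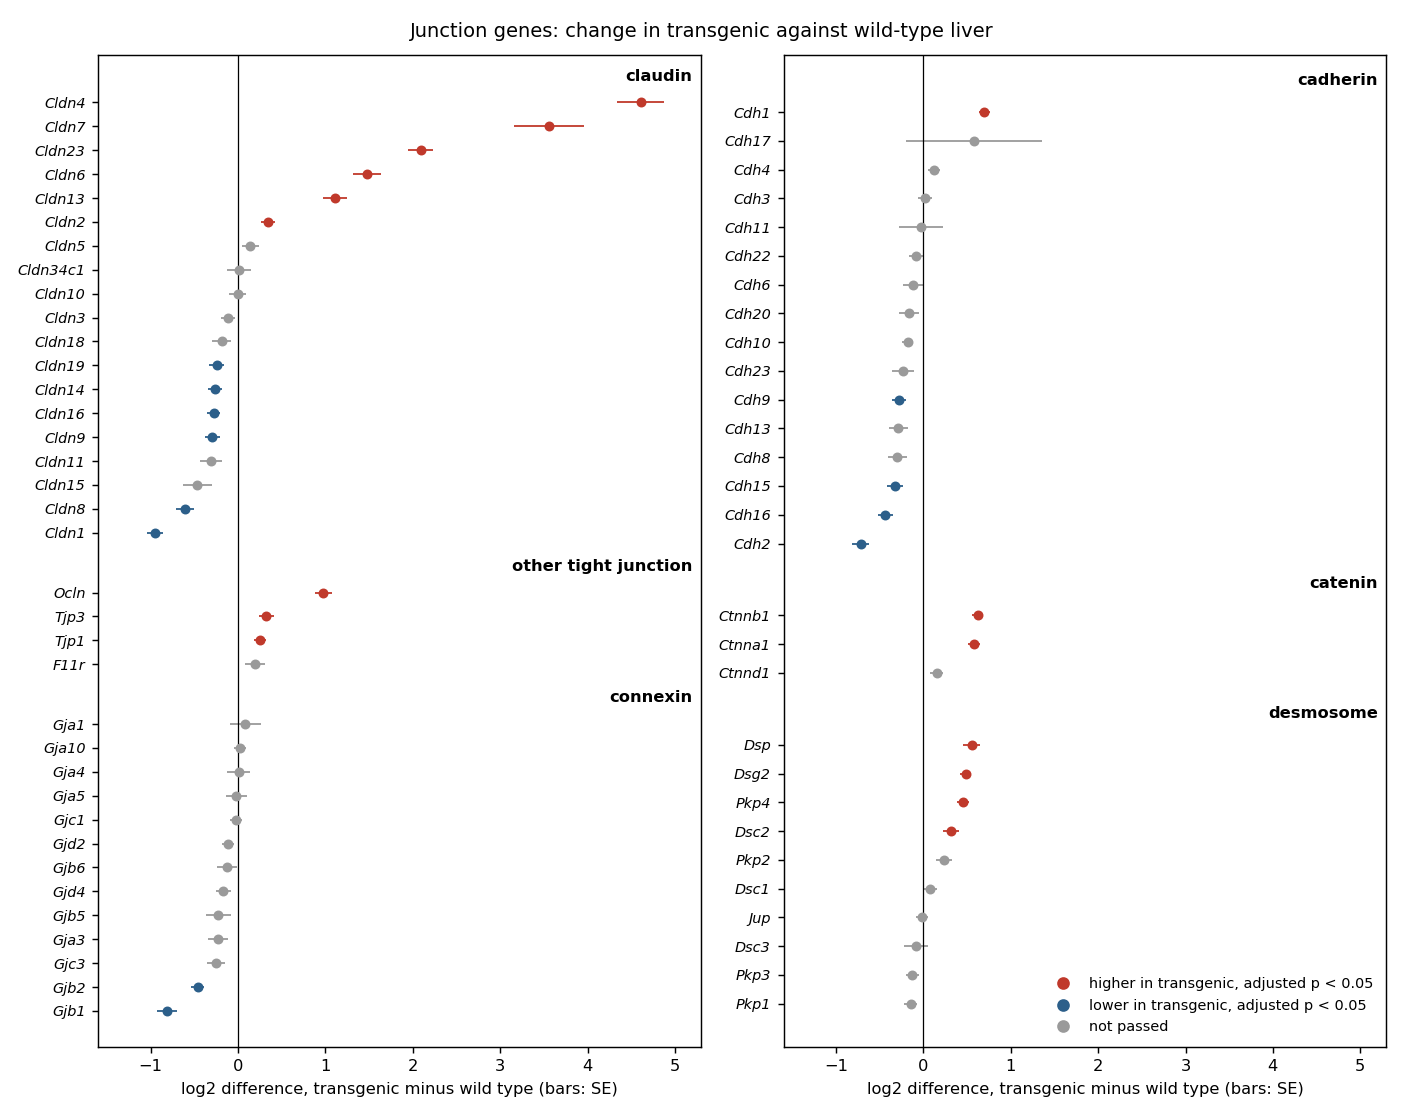
Log2 difference, transgenic minus wild type (horizontal axis), of the 65 junction genes by junction type, with bars for the SE. Red points are the 16 genes called higher, blue points the 12 called lower and grey points the 37 that did not pass; Cldn4 and Cldn7 lie farthest right at 4.61 and 3.56.

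The shares called differed with brightness, taken as the mean over all 6 arrays. A gene bright in 1 group only can therefore lie outside the dimmest. Cldn4 did so, with a mean of 10.53 in the transgenic and 5.92 in the wild-type arrays. The split by brightness is thus not independent of the calls. Of the 26 junction genes outside the dimmest 40% of the array's genes, 14 were higher, 5 lower and 7 did not pass, with a median difference of 0.28. The other 39 were among the dimmest, where 2 were higher (Cldn23 and Cldn6), 7 lower and 30 did not pass, with a median of -0.15. Over all genes outside the dimmest 40%, 28.5% were higher and 20.3% lower with a median of 0.06, and among the dimmest 6.96% were higher and 20.5% lower with a median of -0.13. The deposited table holds no detection calls, so none of these dim genes could be called absent, and the brightness of a dim probe set over its background is unknown.

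Claudins went both ways and held all of the changes of at least 2-fold among the called junction genes. The 19 measured claudins divided into 6 that rose, 6 that fell and 7 that did not pass. Cldn4 and Cldn7, claudins of simple epithelia, rose most. Cldn4 read 10.87, 10.49 and 10.23 in the transgenic arrays, against 6.38, 5.33 and 6.05 in the wild-type arrays. Every transgenic array was above every wild-type array, and the difference of 4.61 (SE 0.27, adjusted p = 2.15e-05) is a fold of 24.4. Cldn7 read 10.61, 10.36 and 10.20 in the transgenic arrays, against 7.89, 6.34 and 6.26 in the wild-type arrays. The groups did not overlap although wild-type replicate 1 was high, and the difference of 3.56 (SE 0.40, adjusted p = 0.000395) was 4.09 (adjusted p = 1.08e-05) without that array.

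Sequences upstream of the RefSeq start sites of Cldn4, Cldn7, Cldn6 and Cldn1 are shown because 3 of these claudins rose and the last fell, each by about 1 log2 unit or more. Each is the 250 bases before the start, 5′ to 3′ on the gene's own strand, from RefSeq on build GRCm38.p6. Cldn4 lies on chr5:134946935-134947184 (minus strand), Cldn7 on chr11:69965171-69965420 (plus), the nearer to the gene's end of 2 annotated starts, Cldn6 on chr17:23679115-23679364 (plus) and Cldn1 on chr16:26371840-26372089 (minus). Capitals mark the hexamer CAGGTG on either strand, an E-box that repressors of the Snail and ZEB families bind.
Cldn4: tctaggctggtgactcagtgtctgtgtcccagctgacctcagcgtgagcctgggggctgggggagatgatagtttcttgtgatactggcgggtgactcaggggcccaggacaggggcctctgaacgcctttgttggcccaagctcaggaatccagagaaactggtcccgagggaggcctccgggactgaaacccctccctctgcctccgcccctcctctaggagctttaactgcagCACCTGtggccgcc
Cldn7: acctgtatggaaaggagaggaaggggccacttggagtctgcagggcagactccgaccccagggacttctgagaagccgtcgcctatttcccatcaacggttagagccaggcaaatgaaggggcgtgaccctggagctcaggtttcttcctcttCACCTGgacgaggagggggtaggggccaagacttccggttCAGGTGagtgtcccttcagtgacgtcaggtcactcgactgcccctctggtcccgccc
Cldn6: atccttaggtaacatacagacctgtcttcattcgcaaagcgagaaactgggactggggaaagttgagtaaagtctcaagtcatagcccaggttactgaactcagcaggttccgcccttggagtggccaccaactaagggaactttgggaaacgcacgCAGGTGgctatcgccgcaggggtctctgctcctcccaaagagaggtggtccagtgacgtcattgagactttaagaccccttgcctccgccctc
Cldn1: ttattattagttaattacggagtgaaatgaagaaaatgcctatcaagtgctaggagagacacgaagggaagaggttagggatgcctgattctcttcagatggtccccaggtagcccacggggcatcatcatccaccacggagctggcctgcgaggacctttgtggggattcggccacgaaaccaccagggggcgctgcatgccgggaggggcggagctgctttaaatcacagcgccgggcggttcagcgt

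The hexamer began 14 bases before the start of Cldn4, 97 and 57 bases before that of Cldn7 and 93 bases before that of Cldn6, and no match was found in the Cldn1 window. RefSeq windows were matched for 43 of the 65 junction genes, 58 windows in all. This hexamer was in 22.4% of those windows, against 17.2% of 32851 windows of all genes. Counted by gene, it was found in 6 of 10 genes called higher that had a window. It was also in 3 of 8 called lower (Cldn14, Gjb1 and Gjb2). A gene with several windows has more chances of a match, and no share by gene was computed over all genes. The other annotated start of Cldn7 had no match. A link between the hexamer and direction was not tested. The palindromic E-box CACGTG, which TFEB and its relatives bind, was in 2 junction windows (3.45%), those of Cdh15 and Tjp3, against 6.02% of all windows. The longer form TCACGTGA, which contains it, was in 0 junction windows and in 0.785% of all windows, and the Grainyhead-like motif AACCGGTT was in 0 and in 0.116%. Both strands were searched in every case, and a match is a description of the letters in the window only.

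Of the other claudins that rose, Cldn23 read 6.37, 6.45 and 6.45 in the transgenic arrays, against 4.61, 4.01 and 4.39 in the wild-type arrays. It rose by 2.09 (SE 0.14, adjusted p = 4.03e-05), with all transgenic values above all wild-type values. Cldn6, a claudin of embryonic epithelia, read 7.41, 7.45 and 6.89 in the transgenic arrays, against 5.97, 5.62 and 5.73 in the wild-type arrays. Its groups also did not overlap, and it rose by 1.48 (SE 0.16, adjusted p = 0.000362). Cldn13, a rodent claudin known from mouse erythroid cells, read 7.44, 7.35 and 7.09 in the transgenic arrays, against 6.44, 6.0 and 6.12 in the wild-type arrays, and it rose by 1.11 (SE 0.14, adjusted p = 0.000617). Markers of erythroid cells were higher for 5 of 8 measured genes and lower for 0, with mean log2 values of 8.10 to 8.33 in transgenic against 7.60 to 7.82 in wild-type arrays; their part in the Cldn13 result was not tested. In bulk liver more cells of a type and more RNA per cell cannot be told apart. Cldn2, which forms cation and water pores and is made by hepatocytes, rose by 0.34 (adjusted p = 0.0101). Its dimmer probe set differed by 0.15 with overlapping groups and did not pass.

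**Figure D3:**
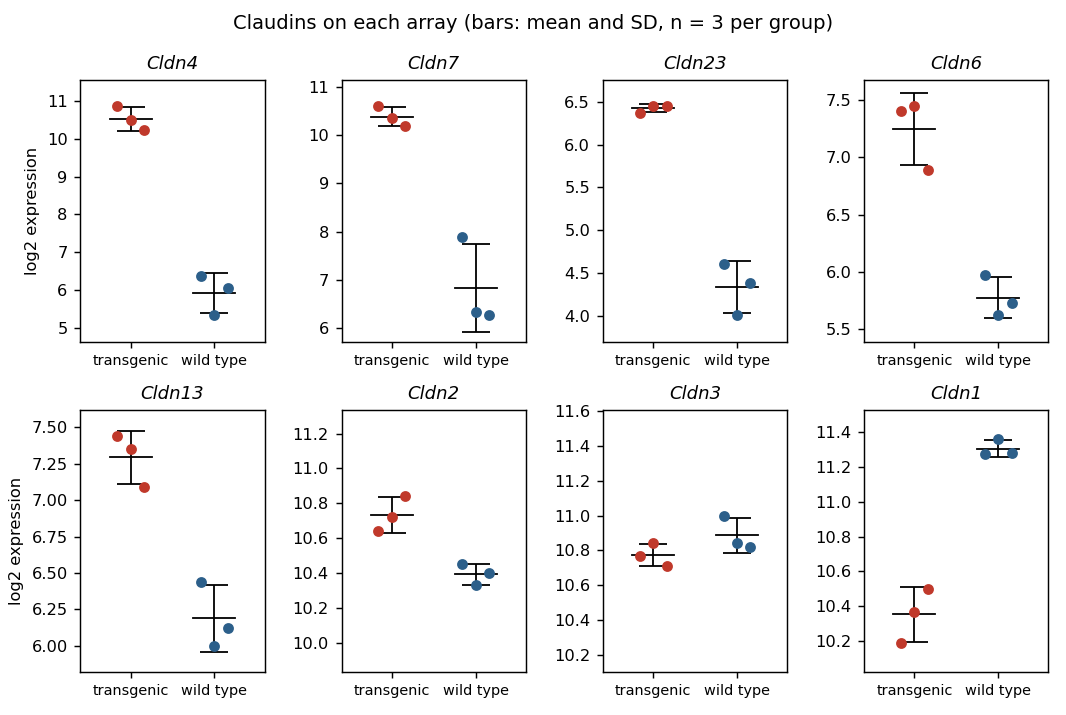
Log2 expression (vertical axis, a separate range in each panel) of 8 claudins on each array, transgenic in red and wild type in blue, with the mean and SD of 3 arrays per group. Cldn4, Cldn7, Cldn23, Cldn6, Cldn13 and Cldn2 sit higher in all transgenic arrays, Cldn1 sits lower in all of them, and the groups of Cldn3 overlap.

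Cldn1, a sealing claudin of hepatocytes and bile duct cells, was among the claudins that fell. It read 10.19, 10.37 and 10.50 in the transgenic arrays, against 11.27, 11.36 and 11.28 in the wild-type arrays. All transgenic values lay below all wild-type values, and it fell by 0.95 (SE 0.09, adjusted p = 0.000192), and 3 of 4 probe sets passed, all but the dimmest. Cldn8, known from the kidney's distal tubule, read 2.96, 2.92 and 3.14 in the transgenic arrays, against 3.50, 3.53 and 3.81 in the wild-type arrays. These are among the dimmest readings on the array, and it fell by 0.61 (SE 0.10, adjusted p = 0.00319), a call lost when the arrays were scaled to the bacterial controls. Cldn3, the brightest claudin by mean and another sealing claudin of hepatocytes, read 10.77, 10.84 and 10.71 in the transgenic arrays, against 11, 10.84 and 10.82 in the wild-type arrays. Its groups overlapped and the difference of -0.12 (SE 0.08, adjusted p = 0.255) did not pass, nor did any of its 4 probe sets.

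The remaining 4 claudins that fell changed by under 0.3 each. Cldn9 fell by 0.29, Cldn16 fell by 0.28, Cldn14 fell by 0.26 and Cldn19 fell by 0.25 as deposited, and all 4 had the opposite sign when the arrays were scaled to the bacterial controls. Cldn9 lost its call without transgenic replicate 1, 2 or 3 or wild-type replicate 2 or 3 (adjusted p = 0.0691 to 0.0952). Cldn14 lost it without transgenic replicate 1 or 2 or any 1 wild-type replicate (adjusted p = 0.0563 to 0.0984). For Cldn16 the call was lost without transgenic replicate 1 or 3 or wild-type replicate 2 or 3 (adjusted p = 0.0616 to 0.0703), and for Cldn19 without transgenic replicate 2 or 3 or any 1 wild-type replicate (adjusted p = 0.0717 to 0.128). The number of claudins called lower was thus 2 to 5 with 1 array left out, lowest without wild-type replicate 2, while 6 were higher whichever array was left out. Repeated quantile normalization and cyclic loess each left 3 claudins lower, without Cldn9, Cldn16 and Cldn19. Of the claudins that were not called, Cldn15 (adjusted p = 0.00591), Cldn18 (0.033) and Cldn11 (0.0433) were called lower without wild-type replicate 3. The endothelial claudin gene Cldn5 and the genes Cldn10, Cldn11, Cldn15, Cldn18 and Cldn34c1 did not pass, with differences of -0.47 to 0.14.

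Genes of other tight junction proteins were higher or did not pass. The type has 4 measured genes, of which 3 rose and 0 fell. Ocln, which encodes the membrane protein occludin, read 9.68, 9.72 and 9.72 in the transgenic arrays, against 8.94, 8.58 and 8.69 in the wild-type arrays. The transgenic values lay close together and above all wild-type values, and the gene rose by 0.97 (SE 0.10, adjusted p = 0.000243). Tjp1, the scaffold that ties claudins and occludin to actin and the brightest gene of this type, read 10.45, 10.42 and 10.33 in the transgenic arrays, against 10.17, 10.15 and 10.13 in the wild-type arrays. It rose by 0.25 (SE 0.07, adjusted p = 0.0175), and the related scaffold gene Tjp3 rose by 0.33 (adjusted p = 0.0195). The Tjp1 call was lost without transgenic replicate 1 or 2 or wild-type replicate 2 or 3 (adjusted p = 0.0507 to 0.0611), and that of Tjp3 without transgenic replicate 1 or wild-type replicate 3 (adjusted p = 0.0548 and 0.0616). Without either transgenic replicate 1 or wild-type replicate 3 only Ocln was called. F11r, which encodes a junctional adhesion molecule, did not pass at 0.19.

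Genes of proteins that work with tight junctions were taken from a list of 19 outside the members. Of 18 measured, 10 rose, 2 were lower and 6 did not pass, with a median difference of 0.33. Over all genes 19.9% were higher and 20.4% lower, with a median of -0.04. Marveld2, which encodes tricellulin, the occludin relative at the corners where cells meet, rose by 1.52 (SE 0.09, adjusted p = 2.31e-05). Cxadr, which encodes an adhesion protein of the same junction, rose by 1.41 (SE 0.09, adjusted p = 3.62e-05). The others that rose were Marveld3, Cgnl1, Magi1, Pard6b, Prkci, Patj, Pals1 and Amotl2. The Cgnl1 call (adjusted p = 0.049) was lost in 12 of 17 alternatives, and that of Pard6b without any 1 transgenic replicate (adjusted p = 0.0543 to 0.0819). The 2 that fell as deposited were Jam3, which fell by 0.33, and Magi3, which fell by 0.32, and neither was called lower when the arrays were scaled to the bacterial controls. Jam3 lost its call without transgenic replicate 1 or 3 or wild-type replicate 2 or 3 (adjusted p = 0.117 to 0.133), and Magi3 without transgenic replicate 1 or 2 or wild-type replicate 3 (adjusted p = 0.0550 to 0.0562).

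Among the 16 cadherins measured, Cdh1 alone rose, while 4 fell and 11 did not pass. Cdh1 encodes E-cadherin, the main epithelial cadherin, and hepatocytes carry it together with N-cadherin, encoded by Cdh2. Cdh1 read 11.03, 11.01 and 11.01 in the transgenic arrays, against 10.29, 10.35 and 10.31 in the wild-type arrays, and it rose by 0.70 (SE 0.06, adjusted p = 0.00012). Cdh2 read 9.96, 9.62 and 9.73 in the transgenic arrays, against 10.46, 10.53 and 10.49 in the wild-type arrays, and it fell by 0.72 (SE 0.09, adjusted p = 0.000907). Neither gene's groups overlapped, both probe sets of Cdh2 were called lower, and both directions were kept when the arrays were scaled to the bacterial controls, with differences of 1.07 and -0.35.

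The other cadherins that fell were dim. The kidney cadherin gene Cdh16 fell by 0.43 (adjusted p = 0.00626), the muscle cadherin gene Cdh15 fell by 0.32 and Cdh9 fell by 0.28 as deposited; when the arrays were scaled to the bacterial controls none of the 3 was called, and Cdh15 and Cdh9 had the opposite sign. Cdh15 lost its call without any 1 transgenic replicate or wild-type replicate 2 (adjusted p = 0.0587 to 0.0708), and Cdh9 without transgenic replicate 1 or 2 or wild-type replicate 1 or 3 (adjusted p = 0.0702 to 0.0902). Without transgenic replicate 1 or transgenic replicate 2, 2 cadherins were called lower, and with median centring 7 were. The genes Cdh3, Cdh4, Cdh6, Cdh8, Cdh10, Cdh11, Cdh13, Cdh20, Cdh22 and Cdh23 did not pass, with differences of -0.30 to 0.12. Cdh8 was called lower without wild-type replicate 1 (-0.38, adjusted p = 0.0332) and Cdh13 without wild-type replicate 3 (-0.38, adjusted p = 0.0292). The dimmest of 3 Cdh13 probe sets was called higher at 0.30 (adjusted p = 0.021) while the brightest read -0.29 and did not pass.

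Cdh17, a cadherin gene of intestine, turned on a single array. It read 6.07, 5.82 and 5.61 in the transgenic arrays, against 7.39, 4.14 and 4.26 in the wild-type arrays. The transgenic values lay between wild-type replicate 1 and the other wild-type arrays, and the difference of 0.57 (SE 0.78, adjusted p = 0.58) did not pass. Without wild-type replicate 1 it was called higher by 1.64 (adjusted p = 0.00022). It was named after its values were seen.

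Among the 3 catenins, 2 rose and 0 fell. Ctnnb1 encodes beta-catenin, which binds cadherin tails and also carries WNT signals to the nucleus, and it was the brightest catenin. It read 13.29, 13.34 and 13.34 in the transgenic arrays, against 12.70, 12.70 and 12.71 in the wild-type arrays. All 3 of its probe sets were called higher, and the brightest rose by 0.62 (SE 0.06, adjusted p = 0.00021). Ctnna1, which links beta-catenin to actin, read 11.89, 11.99 and 11.91 in the transgenic arrays, against 11.44, 11.32 and 11.30 in the wild-type arrays. It rose by 0.57 (SE 0.07, adjusted p = 0.000595), with 2 of 3 probe sets called and the third among the dimmest on the array. Ctnnd1, which encodes the p120 catenin that keeps cadherins at the membrane, did not pass at 0.15 (adjusted p = 0.125), although its groups did not overlap.

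Of 13 measured genes from a list of 14 other adherens junction genes, 5 rose, Nectin3 fell and 7 did not pass. Their median difference was 0.04, and over all genes 19.9% were higher and 20.4% lower. Ajuba, an adaptor at cadherin junctions, rose by 1.31 (SE 0.18, adjusted p = 0.000977) and the actin-binding gene Lima1 rose by 0.92 (SE 0.06, adjusted p = 4.59e-05). Nectin3, which encodes an adhesion molecule of the nectin family, fell by 1.16 (SE 0.10, adjusted p = 9.3e-05). Nectin2, Vcl and Actn4 were the others that rose. Leaving out any 1 array gave the same counts of 5 and 1.

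**Figure D4:**
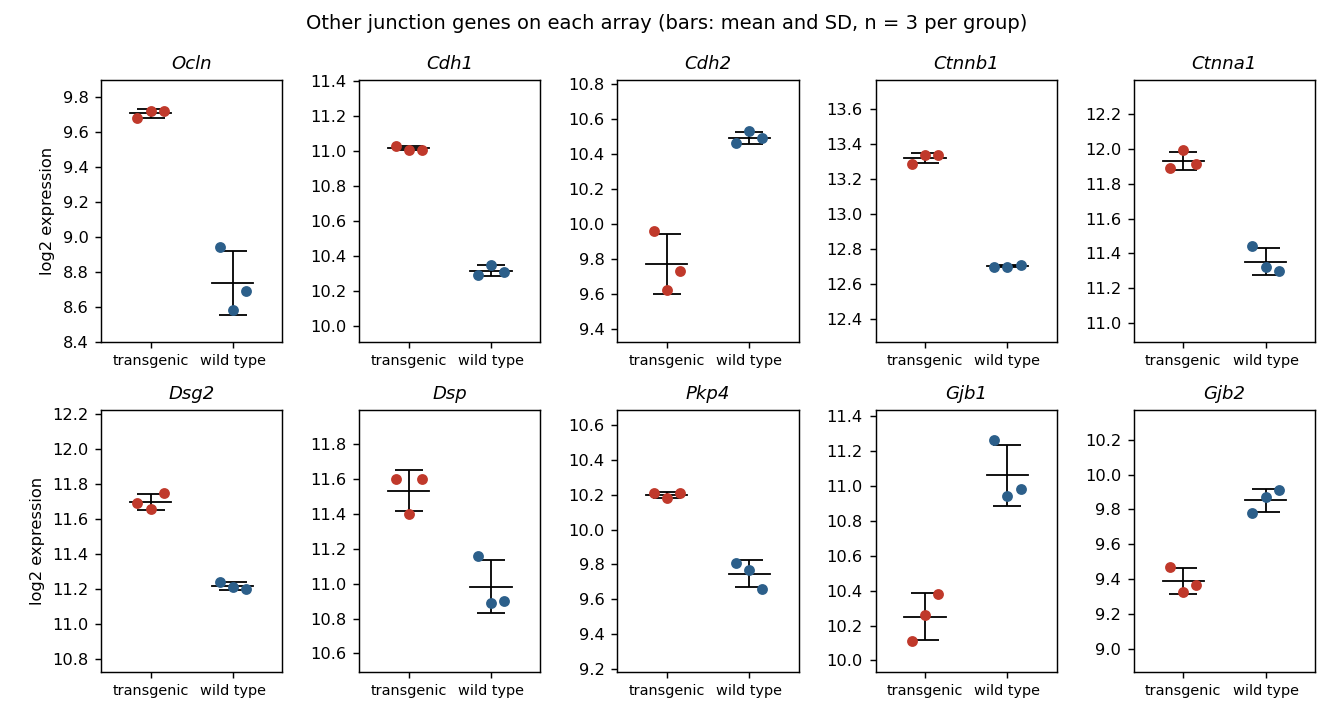
Log2 expression (vertical axis, a separate range in each panel) of 10 genes of the other junction types on each array, transgenic in red and wild type in blue, with the mean and SD of 3 arrays per group. All transgenic values are higher for Ocln, Cdh1, Ctnnb1, Ctnna1, Dsg2, Dsp and Pkp4 and lower for Cdh2, Gjb1 and Gjb2.

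The 10 measured desmosome genes had a median difference of 0.16, and 4 rose, 0 fell and 6 did not pass. Dsp encodes desmoplakin, which ties the desmosome to keratin filaments. It read 11.60, 11.40 and 11.60 in the transgenic arrays, against 11.16, 10.89 and 10.90 in the wild-type arrays, and it rose by 0.55 (SE 0.10, adjusted p = 0.00371). Dsg2, the desmoglein of simple epithelia and the brightest gene of this type, read 11.69, 11.66 and 11.75 in the transgenic arrays, against 11.24, 11.21 and 11.20 in the wild-type arrays. It rose by 0.48 (SE 0.06, adjusted p = 0.000775), with 4 of 6 probe sets called higher and none lower, and the groups of both genes did not overlap.

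Pkp4, a catenin relative found at desmosomes and adherens junctions, rose by 0.46 (adjusted p = 0.0016) on both of its probe sets. Dsc2, a desmocollin, rose by 0.32 (adjusted p = 0.0225), a call lost without transgenic replicate 3 or wild-type replicate 1 or 3 (adjusted p = 0.0550 to 0.0695). Pkp2, the plakophilin of simple epithelia, differed by 0.23 without passing (adjusted p = 0.0852). Without wild-type replicate 1 it was called higher, at 0.33 (adjusted p = 0.011). Jup, which encodes plakoglobin, differed by -0.01, and Dsc1, Dsc3, Pkp1 and Pkp3 by -0.15 to 0.08, none of which passed. Of a list of 5 desmosome and pannexin genes outside the members, 4 were measured. The plakin gene Ppl rose by 0.63 (SE 0.12, adjusted p = 0.00552). Perp, which encodes a desmosomal membrane protein, fell by 0.37 (SE 0.08, adjusted p = 0.00878). Perp was not called when the arrays were scaled to the bacterial controls. Evpl and Panx1 did not pass, and the median of the 4 was 0.03.

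The 13 measured connexins held 2 genes that fell and 0 that rose, and 11 did not pass, with a median difference of -0.13. Their called share was 15.4%, against 40.3% of all genes, and 10 of the 13 were among the dimmest 40%. The 2 that fell as deposited were the main hepatocyte connexins. Gjb1 read 10.11, 10.26 and 10.38 in the transgenic arrays, against 11.26, 10.94 and 10.98 in the wild-type arrays. It fell by 0.81 (SE 0.11, adjusted p = 0.00101), the groups did not overlap and both probe sets were called lower. Gjb2 fell by 0.46 (SE 0.07, adjusted p = 0.0019), and it was not called when the arrays were scaled to the bacterial controls, at -0.09.

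Gjb1, Cldn2 and Cldn34c1 lie on the X chromosome, and transgenic replicate 1 had a male pattern. Without that array Gjb1 fell by 0.74 (adjusted p = 0.00435) and Cldn2 rose by 0.39 (adjusted p = 0.0132). Cldn34c1 then differed by 0.07 and did not pass (adjusted p = 0.749). Gja1, the connexin of many cell types other than hepatocytes, did not pass at 0.08 (adjusted p = 0.737), nor did any of its 6 probe sets. The other connexin genes, Gja3, Gja4, Gja5, Gja10, Gjb5, Gjb6, Gjc1, Gjc3, Gjd2 and Gjd4, did not pass, with differences of -0.25 to 0.02. With the arrays scaled to the bacterial controls 5 connexins were called higher and Gjb1 alone was called lower.

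Probe sets of the same gene gave like directions where both were called. Of the 65 genes, 19 had over 1 probe set, 56 probe sets in all, and 0 had probe sets called in both directions. Over the 102 junction probe sets, with p adjusted over all probe sets of 1 gene, 25 were higher and 15 lower.

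**Figure D5:**
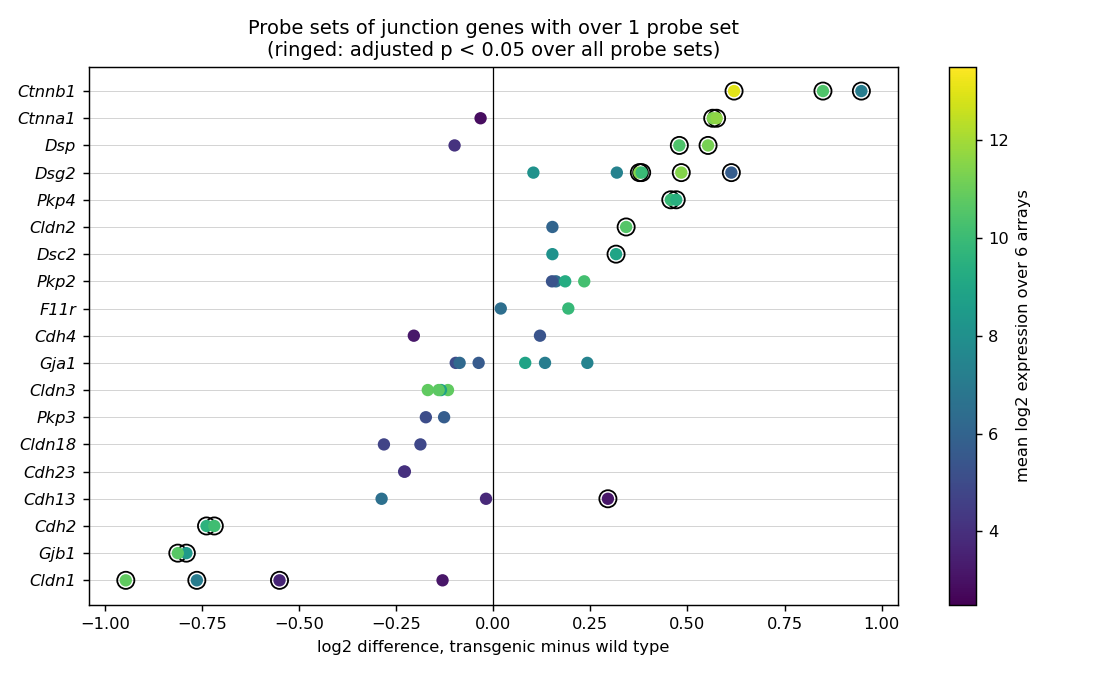
Log2 difference, transgenic minus wild type (horizontal axis), of the 56 probe sets of the 19 junction genes with over 1 probe set, coloured by mean log2 expression over the 6 arrays and ringed where the adjusted p was under 0.05. Ringed points of a gene lie on 1 side of 0 in every row, with 3 of 4 probe sets ringed for Cldn1 and 4 of 6 for Dsg2.

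Regulators of junction genes, a list of 15 of which 14 were measured, gave 1 higher, 5 lower and 8 not passed, with a median difference of -0.23. Esrp1, an epithelial splicing factor, rose by 1.16 (SE 0.22, adjusted p = 0.00501) and is among the dim genes. Klf4, an epithelial transcription factor, fell by 0.56 (SE 0.13, adjusted p = 0.013) and Grhl1, a Grainyhead-like factor of epithelia, fell by 0.43 (SE 0.08, adjusted p = 0.00505). Esrp2, Hnf4a and Zeb1 were the others called lower, the last of these with the call lost in 8 of 17 alternatives, and none of the 5 was called lower when the arrays were scaled to the bacterial controls. Snai1, Snai2, Twist1, Zeb2, Grhl2, Elf3, Ovol1 and Ovol2 did not pass, although Snai1 was called lower without wild-type replicate 1 (-0.42, adjusted p = 0.0215).

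Markers of the cell types that carry these junctions moved unevenly. The counts of this and the next paragraph stand beside 19.9% of all genes higher and 20.4% lower. Of 10 measured cholangiocyte markers, 4 were higher, 2 lower and 4 did not pass, with a median of 0.06; Sox9, a bile duct transcription factor, rose by 2.22 and Prom1 fell by 1.89. The mean log2 value of that list was 7.93, 7.95 and 7.78 in the transgenic arrays, against 8.07, 7.68 and 7.32 in the wild-type arrays. The groups overlapped only because wild-type replicate 1 read highest. Without wild-type replicate 1, 5 markers were higher and 2 lower, and without wild-type replicate 3, 4 were higher and 4 lower. Epcam, which binds claudins in epithelia, read 9.59, 9.55 and 9.30 in the transgenic arrays, against 8.51, 7.23 and 6.88 in the wild-type arrays; it was named after its values were seen and rose by 1.94 (adjusted p = 0.00505). Hepatocyte markers were lower for 7 of 9 and higher for 0 (median -1.07), led by Tdo2, which fell by 3.58, and Alb differed least at 0.00. Endothelial markers were higher for 1 of 11 and lower for 6 (median -0.24), from Kdr, which fell by 0.38, to Lyve1, which rose by 0.40, and with the arrays scaled to the bacterial controls 5 were higher and 0 lower. The Lyve1 call was lost without transgenic replicate 1 or 2 or wild-type replicate 1 or 3. The part of each cell type in the junction results was not tested.

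Among the other marker lists, stellate cell and fibroblast genes were higher for 1 of 11 and lower for 4 (median -0.01, from Rgs5 at -1.97 to Acta2 at 0.96). Macrophage genes were lower for 3 of 9 and higher for 0 (median -0.34, from Adgre1 at -0.56 to Cd68 at 0.07), and between 1 and 6 were lower with 1 array left out, most without wild-type replicate 1. With the arrays scaled to the bacterial controls 2 macrophage genes were higher and 0 lower. Granulocyte genes were lower for 7 of 8 (median -1.99, from Camp at -2.78 to Elane at -0.28) and lymphoid genes for 9 of 9 (median -1.10, from Vpreb1 at -2.54 to Cd3e at -0.35), with 0 higher in either list. Erythroid genes had a median of 0.68, from Tfrc at -0.32 to Hemgn at 1.11, and megakaryocyte genes were higher for 1 of 5 (median 0.24, from Itga2b at 0.03 to Ppbp at 0.66), or for 3 without wild-type replicate 3. Mesothelial genes were higher for 1 and lower for 1 of 5 (median -0.54, from Gpm6a at -0.58 to Krt8 at 1.24). Krt8, the gene called higher, read 11.27 to 12.71. The rest of that list read 3.86 to 8.04 and differed by -0.58 to -0.28. Without wild-type replicate 3, 4 were lower, and 0 were when transgenic replicate 2 or 3 or wild-type replicate 1 or 2 was left out. Acinar genes of the pancreas were lower for 3 of 4 (median -0.50, from Pnliprp1 at -3.20 to Cpa1 at -0.22). Intestinal markers were higher for 1 of 16 and lower for 0 (median -0.36, from Prap1 at -1.95 to Tff3 at 3.72), and 3 were higher and 2 lower without wild-type replicate 1. Of 4 measured sex-linked genes 0 passed. Scaling to the bacterial controls moved several of these counts. Stellate cell and fibroblast genes were then higher for 6 and lower for 3, and hepatocyte genes for 2 and 5. Erythroid genes were then higher for 6, megakaryocyte genes for 5 and intestinal markers for 4, with 0 lower in each. Under that scaling lymphoid genes were lower for 6, granulocyte genes for 7, acinar genes for 2 and mesothelial genes for 0.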

How the data were processed

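Liver RNA of 3 transgenic and 3 wild-type mice was measured on Affymetrix arrays. The deposited log2 values were made by the authors with affy and RMA, per the submitters' processing notes; their versions are not stated there. RMA makes the arrays' distributions nearly alike. The table holds 22690 probe sets, 20380 of them annotated to 1 gene, 691 to several, 1555 to none and 64 controls. Symbols were checked by Entrez identifier against RefSeq (GRCm38.p6): 20351 matched and 0 changed. The number of arrays limits the precision.

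The brightest probe set by mean over the arrays stood for each gene. Group differences were fitted in R 4.3.3 by limma 3.58.1 (lmFit and eBayes) without covariates, and p-values were adjusted by Benjamini-Hochberg over 12393 genes. Exact permutation of so few arrays has a smallest p of 0.1 and was left out. The code was tested on simulated data. Python 3.11.15, pandas 2.3.3 and matplotlib 3.10.9 made tables and figures.

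Members and lists were chosen with earlier results of these data known, and the intestinal list after wild-type replicate 1 was seen to differ. Values on every array are given for called members whose groups do not overlap and whose difference is at least 0.5, and for the brightest gene of each junction type; of other junction lists, up to 2 called genes in each direction are named. Alternatives were the mean of probe sets, single probe sets, omission of probe sets with cross-hybridisation suffixes (_x_at, _s_at), omission of the 40% dimmest genes, quantile normalization again, median centring, cyclic loess, scaling to bacterial controls, array weights, a trended and robust eBayes, omission of each array and a replicate block.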

Additional observations from a re-analysis of the deposited data

How the results depend on the processing

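With every probe set taken on its own, which tests more features, 25 junction probe sets were higher, and 3801 probe sets in all. Without the 40% dimmest genes, when fewer genes were tested, 5 junction genes and 1660 genes in all were lower. Scaling to the bacterial hybridisation controls gave 31 junction genes higher and 3 lower, and 7010 genes higher and 651 lower in all. Whether this scale or the deposited one is closer to the RNA amounts was not tested. Under that scaling the sign turned for Cdh15 (0.049), Cdh9 (0.094), Cldn14 (0.108), Cldn16 (0.094), Cldn19 (0.125), Cldn9 (0.076) and for Cldn3 (0.255), which was not called. In all it turned for 24 of the 37 junction genes not called as deposited, and 15 of those 37 were then called higher. Median centring gave 16 junction genes higher and 16 lower, a split of 50.0% higher against 57.1%. With 1 array left out, 7 to 11 junction genes were lower and 13 to 17 higher. Under the remaining alternatives the counts over all genes and over all junction genes stayed within 1.5 times those as deposited. Counts by junction type moved more: 3 claudins were lower under repeated quantile normalization and cyclic loess, against 6, and 7 cadherins under median centring, against 4. Over the 28 called junction genes with Cdh17 and Cldn3, 436 of 500 repeats kept direction and side of the threshold, 56 lost the call, 1 gained it (Cdh17, without wild-type replicate 1) and 7 changed sign. Of the 37 genes not called, 7 were called with some 1 array left out.

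Arrays with the same replicate number deviated from their group means with correlations of -0.10, -0.02 and 0.06 across genes. With 3 arrays per group these correlations cannot show whether the numbers pair the animals. Of the transgenic arrays, replicate 3 correlated best with the wild-type array of its own number, and replicates 1 and 2 with another. With the replicate block 16 junction genes were higher and 10 lower, and 3 claudins were lower, when Cldn9 (adjusted p = 0.0534), Cldn14 (0.0535) and Cldn19 (0.0733) were not called.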

Other observations

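Junction genes that sit next to each other in the genome were called the same way in 1 of 12 pairs. Of all 65 junction genes 24.6% were higher and 18.5% lower, and no share was computed for neighbouring pairs of all genes. In the RefSeq order of protein-coding genes (GRCm38.p6) the pair called the same way was Cldn1 and Cldn16, both lower. In 1 pair, Cldn6 and Cldn9, they were called in opposite directions, in 9 pairs 1 gene was called and in 1 pair neither. Cldn4 rose by 4.61 beside Cldn3 at -0.12, and Cdh1 rose by 0.70 beside Cdh3 at 0.02. Gjb2 fell by 0.46 beside Gjb6 at -0.13 and Gja3 at -0.23. Dsc2 rose by 0.32 between Dsc3 at -0.09 and Dsc1 at 0.08. Whether the members of a pair differed from each other was not tested, and the calls of Cldn16, Cldn9 and Dsc2 were lost with some arrays left out.

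Some contrasts between members do not depend on how whole arrays are scaled, since any shift of an array cancels. They were chosen after the values were seen. The change of Cdh1 exceeded that of Cdh2 by 1.42 on the log2 scale. The change of Cldn4 exceeded that of Cldn1 by 5.56, that of Ocln exceeded that of Cldn1 by 1.92, that of Cldn2 exceeded that of Cldn1 by 1.29 and that of Dsg2 exceeded that of Gjb1 by 1.30. Each pair joins a gene that was higher in all transgenic arrays with one that was lower in all of them, so these sizes are a description.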
